A study of Schmidtea mediterranea with 171 samples.

Results

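The genes *ston-2* (SmedASXL_013691), *syt-11* (SmedASXL_012098) and *sec14-l2* (SmedASXL_013164) were followed through every single cell and every tube of cells sequenced from the planarian head. They are 3 of the 67983 transcripts in the count table. They were selected on their read counts in these cells: they belong to 11 genes enriched in Group 3, a cluster of X1 cells also called νNeoblasts, whose expression patterns the study examined together, and were grouped by names, given after the closest mouse protein, that point to vesicle traffic. That enrichment was measured in the cells described here, so their levels in Group 3, and in the *piwi-1*-low X1 cells that make up most of it, are given as a description with no test.

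The cells came from heads of wildtype *Schmidtea mediterranea* of the clonal asexual strain CIW4, starved for 1 week, with 30 animals pooled and the material labelled as amputation fragments. Cells were sorted by FACS into the X1 gate, which is enriched for dividing neoblasts (planarian stem cells), and the X2 gate, where their early progeny are found beside other cells. There were 96 single X1 cells, 72 single X2 cells, 2 tubes of 200 X1 cells and 1 tube of 200 X2 cells, all amplified by SmartSeq2 from polyadenylated RNA. X2 cells are named here by the number in their description label, 20 to 91, while their titles number them 1 to 72. The labels do not say which animal or sort a cell came from. Each gate is therefore 1 sample, groups of cells were compared without a test, and intervals cover counting error only.

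As background, a neuron releases transmitter when synaptic vesicles fuse with its membrane, and it retrieves the vesicle proteins by endocytosis for another round. Stonin-2 is an endocytic adaptor that in flies and mammals sorts synaptotagmin into the retrieved vesicles. Synaptotagmins are vesicle membrane proteins with paired C2 domains, and mammalian synaptotagmin-11 is a member that is not a calcium sensor. SEC14-like 2 is a mammalian lipid-binding protein, and its yeast relative Sec14 exchanges phospholipids at the Golgi, where it is needed to form secretory vesicles. What the planarian proteins do was not measured here.

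The start of each gene's longest open reading frame is shown because the count of each member rests on reads that match these transcripts. Each sequence is the first 120 bases of the longest open frame that starts with ATG (in capitals) within the first 399 bases of the cloned transcript, as far as the study's list of cloned transcripts was read. Whether this ATG is the true start was not tested.
*ston-2*: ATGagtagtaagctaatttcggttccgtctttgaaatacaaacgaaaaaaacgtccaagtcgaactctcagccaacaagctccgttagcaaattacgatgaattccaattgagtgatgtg
*syt-11*: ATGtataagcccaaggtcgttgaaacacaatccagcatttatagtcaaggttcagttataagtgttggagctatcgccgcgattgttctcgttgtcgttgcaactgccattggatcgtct
*sec14-l2*: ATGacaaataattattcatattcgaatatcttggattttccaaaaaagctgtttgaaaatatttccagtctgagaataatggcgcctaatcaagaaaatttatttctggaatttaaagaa
The frames start at base 142, 135 and 52 of the transcripts and run without a stop codon for 258, 264 and 348 bases, up to the end of the stretch read here. The longest such frames on the opposite strand had 96, 78 and 111 bases. The G and C content of the frame was 37.6% for *ston-2*, 40.2% for *syt-11* and 28.4% for *sec14-l2*. Reads were aligned after trimming to 35 bases, and none of the 3 stretches shared a run of 35 bases, on either strand, with any of the 35 other sequences in the list. Transcripts outside the list and later bases were not compared, so whether reads match only these transcripts was not tested.

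The median depth was 3.18 M reads (M, 1000000 reads) assigned to a transcript in single X1 cells, with a range of 0.813 to 20.2 M, and 2.7 M in single X2 cells (0.550 to 4.80 M). The median number of transcripts with a read was 5040 in X1 cells and 1894 in X2 cells. Levels are given as CPM, the reads of a transcript per 1000000 assigned reads of that cell, and a gene is called detected at 5 CPM or more. By that rule *piwi-2*, which encodes a PIWI protein of neoblasts, was detected in 95 of 96 X1 cells and 58 of 72 X2 cells. *piwi-1*, the standard neoblast marker, was detected in 69 X1 cells and 46 X2 cells, so 27 X1 cells from a stem cell gate were low for it. The ubiquitous *alpha-tubulin* was detected in 86 of 96 X1 cells and 48 of 72 X2 cells.

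*ston-2* was detected in 13 of 96 X1 cells, or 13.5% (exact 95% Clopper-Pearson interval 7.41% to 22.0%). In these 13 cells it ranged from 38.3 CPM through a median of 420.0 CPM to 1468 CPM, in X1 cell 43. A further 13 X1 cells had 1 to 4 reads of *ston-2*, at no more than 2.02 CPM, and 70 had none. Cells were therefore either well above the 5 CPM line or well below it, and no X1 cell lay between 2.02 and 38.3 CPM. X1 cell 43 held 22.8% of the *ston-2* CPM summed over X1 cells, and the 3 highest cells together held 50.4%.

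In X2 cells, *ston-2* was detected in 3 of 72, or 4.17% (0.868% to 11.7%). Its level was 79.9 CPM in X2 cell 69, 13.4 CPM in X2 cell 88 and 5.06 CPM, from 3 reads, in X2 cell 70. All 3 lay below the median of the positive X1 cells. At least 1 read was found in 17 of 72 X2 cells, or 23.6%, beside 26 of 96 X1 cells, or 27.1%. The shares with any read lay closer together than the shares at 5 CPM or more. With every cell thinned to 100000 reads, at least 1 read was left in 14.6% of X1 cells and 5.56% of X2 cells.

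*syt-11* was detected in 8 of 96 X1 cells, or 8.33% (3.67% to 15.8%). Those cells ranged from 5.93 through a median of 193.5 to 1494 CPM. The highest, X1 cell 61, held 52.4% of the *syt-11* CPM summed over all X1 cells, so the mean of this gene rests largely on 1 cell: it was 29.7 CPM over 96 cells and 14.3 CPM without it. A further 10 X1 cells had reads at 2.741 CPM or less. No X2 cell had a single read of *syt-11*. With 3 cells as the limit that a count of 0 allows, 0 of 72 cells allows a share of up to 4.17%.

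*sec14-l2* was detected in 6 of 96 X1 cells, or 6.25% (2.328% to 13.1%). Its levels were 530.0 CPM in X1 cell 7, 463.1 CPM in cell 61, 396.5 CPM in cell 44, 300.3 CPM in cell 24, 152.0 CPM in cell 37 and 32.9 CPM in cell 4. Only 4 other X1 cells had any read, and each had exactly 1. *sec14-l2* was thus close to all-or-none, and it was also without a read in all 72 X2 cells, with the same limit of 4.17%.

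**Figure D1:**
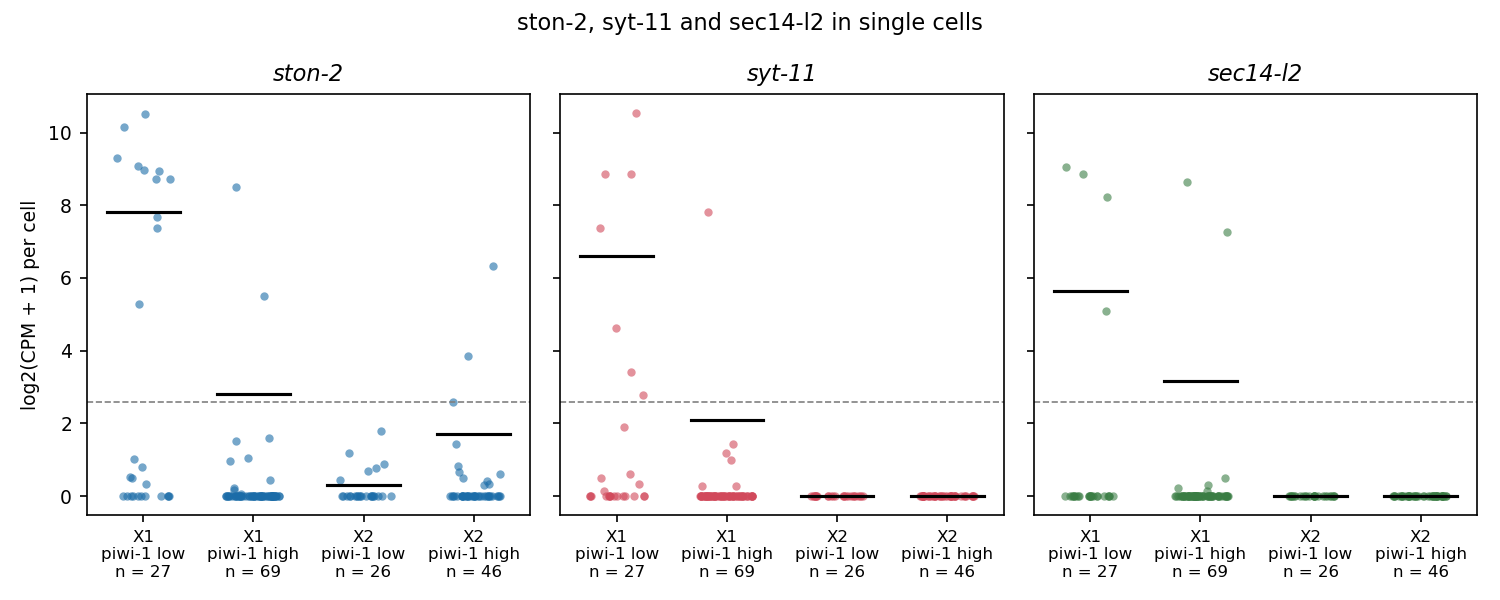
Level of each gene in every single cell as log2(CPM + 1), by gate and by *piwi-1* class (low is under 5 CPM). Each point is 1 cell, the black bar is the mean CPM of the class on the same scale, and the dashed line is 5 CPM. *ston-2* reached 5 CPM in 11 of 27 *piwi-1*-low X1 cells, and *syt-11* and *sec14-l2* lie at 0 in every X2 cell.

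The 3 genes were found in overlapping sets of X1 cells. All 3 were chosen for the same Group 3, which held 11 of the *ston-2* cells and every *syt-11* and *sec14-l2* cell. Their overlap thus follows in part from that choice and is given as a description. At least 1 was detected in 14 of 96 cells (14.6%, 8.21% to 23.3%), at least 2 in 9 and all 3 in 4. The *syt-11* cells lay wholly within the *ston-2* cells: 8 of 8 *syt-11* cells had *ston-2* (100%, 63.1% to 100%), and 8 of 13 *ston-2* cells had *syt-11* (61.5%). Of the 6 *sec14-l2* cells, 5 had *ston-2* (83.3%, 35.9% to 99.6%) and 4 had *syt-11* (66.7%), while 5 of 13 *ston-2* cells had *sec14-l2* (38.5%). No X1 cell had *syt-11* with *sec14-l2* but without *ston-2*. No X2 cell had more than 1 of the genes.

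The cells with all 3 genes were X1 cells 7, 24, 44 and 61. In that order, *ston-2* was at 420.0, 1143, 364.6 and 202.2 CPM. *syt-11* was at 459.3, 9.69, 222.6 and 1494 CPM, a wider range than that of *ston-2*. *sec14-l2* stayed between 300.3 and 530.0 CPM in these cells. The order of the 4 cells differed between the genes: cell 24 was the highest of them for *ston-2* and the lowest for *syt-11*, and cell 61 was the reverse. Over the 96 X1 cells Pearson's r of log2(CPM + 1) was 0.76 for *ston-2* with *syt-11*, 0.54 for *ston-2* with *sec14-l2* and 0.66 for *syt-11* with *sec14-l2*. These points share a gate and mostly zeros, and Spearman's rho was lower, at 0.57, 0.37 and 0.34.

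**Figure D2:**
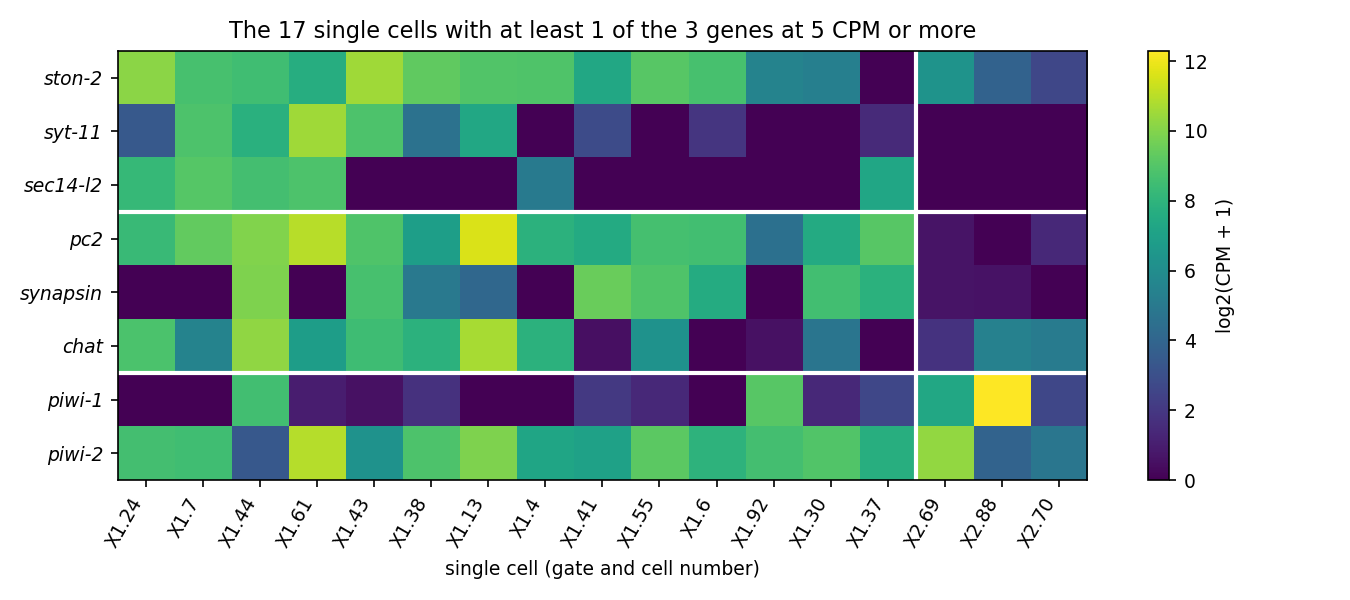
Levels in the 17 single cells with at least 1 of the 3 genes at 5 CPM or more, as log2(CPM + 1) by color. Columns are cells, ordered by gate and then by how many of the 3 genes were detected, and rows are the 3 genes, 3 neuron markers and 2 *piwi* genes. All 14 X1 cells have *pc2*, and 11 of them have *piwi-1* under 5 CPM.

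X1 cells were next split at 5 CPM of *piwi-1*, into 27 low and 69 high cells. At least 1 of the 3 genes was detected in 11 of 27 *piwi-1*-low cells (40.7%, 22.4% to 61.2%) and in 3 of 69 *piwi-1*-high cells (4.35%, 0.906% to 12.2%). *ston-2* was detected in 11 low cells (40.7%) and 2 high cells (2.899%), and *syt-11* in 7 low cells (25.9%) and 1 high cell (1.449%). *sec14-l2* had the smallest difference, with 4 low cells (14.8%) and 2 high cells (2.899%) (intervals 4.19% to 33.7% and 0.353% to 10.1%). Of 11290 transcripts at 5 CPM or more in at least 5 X1 cells, the median share was 11.1% of low cells and 10.1% of high cells.

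In mean level, *ston-2* was 37.0 times higher in *piwi-1*-low cells (223.0 ± 378.4 CPM, SD, n = 27 cells) than in high cells (6.03 ± 44.1 CPM, n = 69 cells). *syt-11* was at 97.2 ± 305.7 CPM in low and 3.29 ± 26.8 CPM in high cells, and *sec14-l2* at 49.1 ± 141.6 and 7.96 ± 50.9 CPM. The SD exceeded the mean in every class, and the ranges overlapped, since both classes held cells at 0 and cells above 200 CPM. The log2 ratios of mean CPM, with 1 CPM added, were 4.99, 4.52 and 2.484. All 3 genes passed a log2 ratio of 1, as did 27.6% of the 11290 transcripts, and the median of all of those was 0.15. Nothing is read from this count, since the genes were chosen for Group 3. Without X1 cells numbered 1 to 24 the log2 ratio of *sec14-l2* was 0.97, below that line, with detection in 4.76% of low and 3.92% of high cells.

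The 3 *piwi-1*-high cells with a member were unlike one another. X1 cell 44 had 379.1 CPM of *piwi-1* and all 3 genes, and it held 87.7% of the summed *ston-2* CPM of the high class, 98.1% of the *syt-11* CPM and 72.2% of the *sec14-l2* CPM. The same cell had 951.8 CPM of *synapsin*, 1228 CPM of *chat* and only 9.42 CPM of *piwi-2*. Without it, the mean of the high class was 0.754 CPM for *ston-2*, 0.0651 CPM for *syt-11* and 2.248 CPM for *sec14-l2*. X1 cell 92 had 547.8 CPM of *piwi-1*, and of the 3 genes it had *ston-2* alone, at 44.7 CPM. X1 cell 37, with *sec14-l2* alone, was the cell just inside the high class, at 5.18 CPM of *piwi-1* from 6 reads, and X1 cell 36, just outside it at 4.50 CPM, had none of the 3 genes.

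The neuron markers were detected in a larger share of the X1 cells with a member than of those without. The members were chosen for Group 3, which held 12 of these 14 cells. Group 3 was clustered on transcripts that include *pc2* (rank 60 by variation), *chat* (rank 99) and *synapsin* (rank 214). The difference thus follows in part from that choice and is a description only. *pc2*, which encodes the prohormone convertase that matures neuropeptides, was detected in all 14 X1 cells with a member (100%, 76.8% to 100%; 22.0 to 3120 CPM, median 396.0) and in 23 of the 82 X1 cells without one (28.0%, 18.7% to 39.1%). *synapsin*, which encodes a synaptic vesicle phosphoprotein, was detected in 9 of 14 cells with a member (64.3%) and 7 of 82 without (8.54%). *chat*, which encodes choline acetyltransferase, the enzyme that makes acetylcholine, was detected in 10 of 14 (71.4%) and 10 of 82 (12.2%). Split by gene, *chat* was found in 7 of 8 *syt-11* cells and 5 of 6 *sec14-l2* cells, and *synapsin* in 5 of 8 and 2 of 6. *synapsin* thus had a median of 0 CPM over the *sec14-l2* cells. All 3 markers were detected in some member-positive cells and none was at 0 across them, and their part in the result was not tested.

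Within the *piwi-1*-low X1 cells, *pc2* divided the cells further. A member was detected in 11 of the 16 *piwi-1*-low cells with *pc2* (68.8%, 41.3% to 89.0%) and in 0 of the 11 without, which allows a share of up to 27.3%. In *piwi-1*-high cells the counts were 3 of 21 with *pc2* (14.3%, 3.05% to 36.3%) and 0 of 48 without, which allows up to 6.25%. So in both classes each member-positive X1 cell was a *pc2* cell. Cells without *pc2* were sequenced more deeply, with a median of 3.26 M assigned reads against 2.3 M in the low class. In the 3 X2 cells with *ston-2*, *pc2* was at 1.686 CPM or less, *synapsin* at 0.563 CPM or less and *piwi-1* at 5.06 to 5028 CPM. *chat* was detected in 2 of these 3, at 33.7 CPM in X2 cell 70 and 40.9 CPM in X2 cell 88, and was at 2.532 CPM in X2 cell 69.

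**Figure D3:**
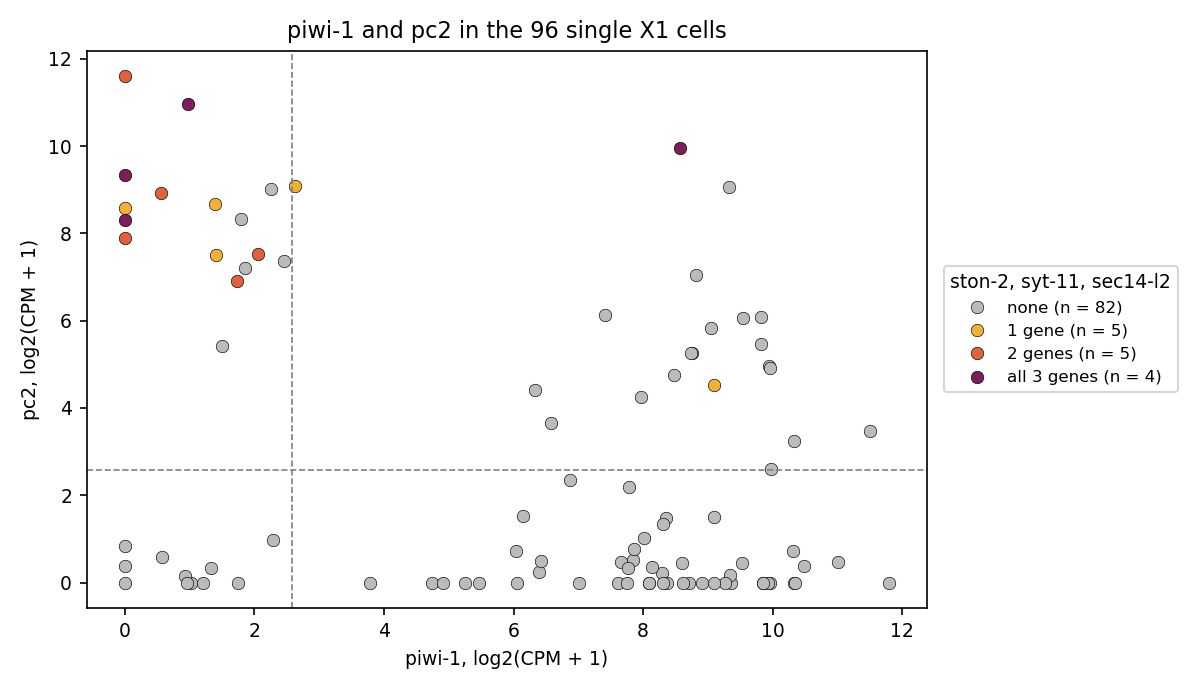
*piwi-1* (x axis) against *pc2* (y axis) in the 96 single X1 cells, both as log2(CPM + 1), with dashed lines at 5 CPM. Each point is 1 cell, colored by how many of *ston-2*, *syt-11* and *sec14-l2* were detected. The 14 colored cells all lie above the *pc2* line, 11 of them left of the *piwi-1* line.

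Over all X1 cells, stem cell genes other than *piwi-2* were detected in a smaller share of the cells with a member than of those without, which did not hold within the *piwi-1*-low class. Of 6 stem cell genes (*piwi-2*, *piwi-3*, *bruli*, *vasa-1*, *vasa-2* and *HP1-1*), the median X1 cell with a member had 3 and the median X1 cell without one had 5. *piwi-2* was detected in 14 of 14 cells with a member, at a median of 381.1 CPM, against 689.3 CPM in the others. *vasa-2*, which encodes a germ-line type RNA helicase, was detected in 0 of 14 and in 41 of 82, and *vasa-1* in 4 of 14 and 63 of 82. *HP1-1*, which encodes a heterochromatin protein, was detected in 4 of 14 and 64 of 82. Within the *piwi-1*-low class the median was 3 of the 6 in the 11 cells with a member and 2 in the 16 without. There *bruli*, which encodes an RNA-binding protein of neoblasts, was detected in 6 of 11 cells with a member and 2 of 16 without, and *vasa-2* in 0 of 11 and 2 of 16.

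The 8 others of those 11 genes were also more frequent beside the members, a list that the study chose on these same cells. Further transcription factors that it chose as enriched are not in this list. The median X1 cell with a member had 3 of the 8 (range 0 to 6), and the median without had 0 (range 0 to 3). *ptprd-9*, named after a mouse receptor tyrosine phosphatase, was detected in 8 of 14 cells with a member and 1 of 82 without. *msi-1*, named after the RNA-binding protein Musashi, was detected in 9 of 14 and 11 of 82. All 8 had a log2 ratio of 1 or more for *piwi-1*-low over high cells, with a median of 4.56, beside the 27.6% of tested transcripts given above. Of the 8, 6 were at 5 CPM or more in at least 5 X1 cells and so among those tested, and *msi-2* and *grm-3* were not. A ratio of −1 or less was found for 5 of the 6 stem cell genes, all 6 of them tested, beside 24.4% of the 11290 transcripts. Of other lineages, only markers of protonephridia (*pou2/3*) and of the epidermal lineage (*zfp-1* and *soxP-3*) were looked at. These markers were at or near 0 beside the members. They were detected in 0 of 14 cells with a member, and in 3, 17 and 9 of 82 without. They were also in 0 of the 16 *piwi-1*-low cells with no member, and 0 of 14 cells allows a share of up to 21.4%. Cells with a member had a median of 1.99 M assigned reads and 5131 transcripts, against 3.33 M and 5019 in the cells without, so they were sequenced less deeply, and *alpha-tubulin* was detected in 13 of 14 and 73 of 82.

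Between the gates, all 3 genes had higher mean levels in X1 cells. The mean of *ston-2* was 67.0 ± 224.0 CPM (SD, n = 96 cells) in X1 and 1.5204 ± 9.52 CPM (n = 72 cells) in X2, a ratio of 44.1 on cell means and 27.7 on pooled reads. For *syt-11* the pooled level was 14.4 CPM in X1 cells, and for *sec14-l2* it was 7.11 CPM. Neither had a read in X2 cells. Their pooled X1 levels were 909.2-fold and 448.8-fold a floor of 3 reads over the 72 X2 cells. These folds cover read counting only and are no lower bound on the difference between gates, since the reads sat in few cells. By the limit of 3 cells, up to 4.17% of X2 cells could hold either gene, beside 8.33% and 6.25% of X1 cells. The 3 genes passed a log2 ratio of 1, as did 38.5% of the 13168 transcripts at 5 CPM or more in at least 5 of all single cells. The median log2 ratio of all those transcripts was 0.55 in favor of X1. Among the 11290 transcripts found in at least 5 X1 cells, 12.2% had no read in any X2 cell, as did *syt-11* and *sec14-l2*. The number of transcripts per cell was lower in X2 cells, as given above. The mean share of reads not assigned to a transcript was 45.4% in X2 and 21.2% in X1 cells. The part of either in these differences was not tested. *pc2* was detected in 3 of 72 X2 cells and *synapsin* in 1, but *chat* in 33, and only 2 of those 33 *chat* cells had *ston-2*.

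The tubes of 200 cells gave unlike levels for the X1 gate. *ston-2* was at 41.6 CPM (exact 95% Poisson interval 38.7 to 44.6) in X1 tube 1, from 766 reads, and had no read in X1 tube 2. *syt-11* was at 12.6 CPM (11.0 to 14.3) from 232 reads in tube 1 and again had no read in tube 2. *sec14-l2* was at 19.4 CPM (17.5 to 21.6) from 358 reads in tube 1 and at 0.375 CPM (0.102 to 0.960) from 4 reads in tube 2. Against a floor of 3 reads in tube 2, *ston-2* was 147.8-fold and *syt-11* 44.8-fold higher in tube 1. These folds depend on the floor and are no lower bounds. *sec14-l2*, with reads in both tubes, was 51.8-fold higher (20.1 to 191.2 from counting error). All 3 passed a log2 ratio of 1 between the tubes, beside 23.8% of the 6640 transcripts at 5 CPM or more in either tube, whose median was 0.30. The mean over the X1 tubes was 20.8 ± 29.4 CPM for *ston-2*, 6.30 ± 8.91 CPM for *syt-11* and 9.91 ± 13.5 CPM for *sec14-l2* (SD, n = 2 tubes).

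The single X1 cells lay nearer to tube 1. Their mean level was 67.0 CPM for *ston-2*, 29.7 CPM for *syt-11* and 19.5 CPM for *sec14-l2*. At the single-cell share, 200 X1 cells would hold 27.1 *ston-2* cells (14.8 to 44.1), 16.7 *syt-11* cells (7.33 to 31.5) and 12.5 *sec14-l2* cells (4.66 to 26.2). The neuron markers differed between the X1 tubes in the same direction. *chat* was at 78.2 CPM in tube 1 and 0.563 CPM in tube 2, *synapsin* at 23.3 and 0 CPM, and *pc2* at 130.8 and 24.9 CPM. The 8 others of the 11 genes had a log2 ratio of 1 or more for tube 1, and 5 of them were at 5 CPM or more in either tube, the condition behind the 23.8% above. The stem cell genes differed less: *piwi-1* was at 426.9 and 548.2 CPM and *piwi-2* at 873.2 and 931.4 CPM, while *HP1-1* was higher in tube 2 (93.0 and 212.2 CPM). *alpha-tubulin* was at 111.8 and 50.0 CPM. Fewer cells with these transcripts and less of their RNA per cell cannot be told apart in a tube. What else differed between the X1 tubes, in handling or amplification, is not given in the labels and was not tested.

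In the X2 tube *ston-2* was at 14.9 CPM (12.9 to 17.1) from 202 reads, 9.77 times the mean of the single X2 cells. *syt-11* had no read in that tube, as in the 72 single cells, and 3 reads would have been 0.221 CPM. *sec14-l2* had 19 reads, or 1.397 CPM (0.841 to 2.18), where the single X2 cells had none. For *ston-2* the X2 tube thus lay between the X1 tubes, and for *sec14-l2* it lay above X1 tube 2 with counting intervals that overlap.

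**Figure D4:**
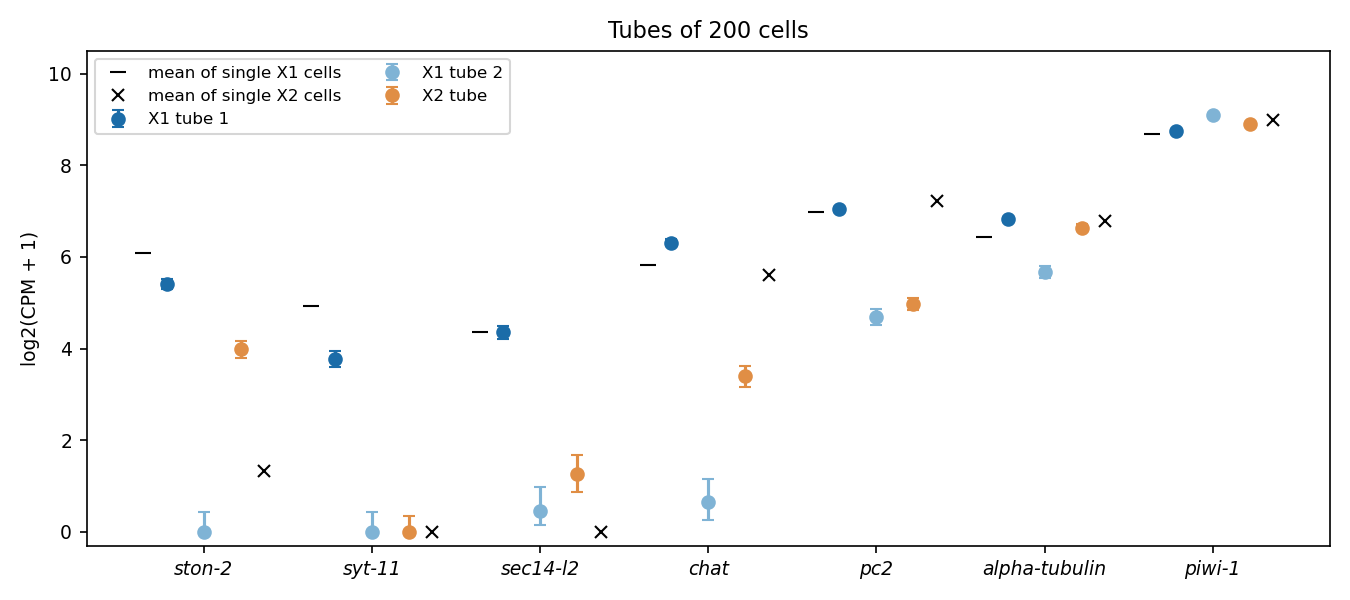
Levels in the 3 tubes of 200 cells, as log2(CPM + 1), for the 3 genes and for *chat*, *pc2*, *alpha-tubulin* and *piwi-1*. Points are tubes with exact 95% Poisson intervals (counting error only), dashes are the mean of the 96 single X1 cells and crosses the mean of the 72 single X2 cells. *ston-2*, *syt-11* and *sec14-l2* are at 41.6, 12.6 and 19.4 CPM in X1 tube 1 and at 0, 0 and 0.375 CPM in X1 tube 2.

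Cell numbers in the labels gave an uneven picture. X1 cells with a member numbered 5 among cells 1 to 24, 6 among cells 25 to 48, 2 among cells 49 to 72 and 1 among cells 73 to 96. *piwi-1*-low cells numbered 6, 10, 9 and 2 in the same ranges, and those with a member were 5, 4, 2 and 0. The share of *piwi-1*-low cells with a member was thus highest among cells 1 to 24 and lowest among cells 73 to 96. Of the 6 *sec14-l2* cells, 3 had numbers up to 24. The 3 X2 cells with *ston-2* all had numbers from 68 to 91. The median depth was 3.48, 2.17, 3.90 and 3.47 M assigned reads in the 4 X1 ranges, and *pc2* was detected in 10, 12, 8 and 7 cells. In X1 cells 1 to 24, each total of assigned reads and each count of the 3 genes was an even number. Among these totals and counts, odd numbers occurred in each later X1 range. Other genes had odd counts in cells 1 to 24 too, such as *piwi-1* with 6545 reads in X1 cell 22 and 1909 in X1 cell 2. Whether reads were counted more than once in cells 1 to 24 was not tested, so 3.48 M may overstate their depth. The 6 *piwi-1*-low cells among them had no *piwi-1* read. What a cell number stands for is not given in the labels, and its part in these counts was not tested.

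The 10 cluster groups were rebuilt from the 1000 most variable transcripts, of which *ston-2* (rank 17), *syt-11* (rank 61) and *sec14-l2* (rank 128) are themselves members, so the groups were partly made from these genes. Group 3 held 17 X1 cells, 15 of them *piwi-1*-low. At least 1 of the 3 genes was detected in 12 of the 17. *ston-2* was in 11 of them, with a median of 364.6 CPM over the group. *syt-11* was in 8 and *sec14-l2* in 6, which are all the cells with either gene, and their medians over Group 3 were 2.741 and 0 CPM. X1 cells 30 (Group 1, 38.3 CPM) and 92 (Group 4, 44.7 CPM) had the lowest *ston-2* levels of the positive X1 cells and were the only ones outside Group 3. Group 3 cells 16, 27, 45, 51 and 53 had no member at 5 CPM, with *ston-2* at 1.04 CPM or less. Winsorizing, which the authors applied to this table to cap the most extreme cells, lowered the highest *syt-11* value from 4226 to 1559 normalized counts and its mean over all single cells from 63.6 to 40.8. For *ston-2* the mean went from 172.9 to 165.3 and for *sec14-l2* from 46.6 to 35.4.

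Likeness was measured as Pearson's r of log2(CPM + 1) over the 96 X1 cells, among the 11289 other transcripts at 5 CPM or more in at least 5 of them. The transcripts most like *ston-2* were SmedASXL_004435 (r = 0.86), SmedASXL_002054 (0.86) and SmedASXL_009400 (0.83), and the files pair none of these with a gene name. Each was detected in 11 of the 13 *ston-2* cells. *syt-11* was nearest to *ston-2* itself (0.76), followed by SmedASXL_008897 (0.74) and SmedASXL_004435 (0.74). From the side of *ston-2*, *syt-11* ranked 10 and *sec14-l2* ranked 84. Without X1 cells numbered 1 to 24, r of *ston-2* with *sec14-l2* was 0.38 and the rank 401, while *syt-11* ranked 9. *sec14-l2* was nearest to SmedASXL_011051 (0.79), SmedASXL_005439 (0.75) and SmedASXL_010967 (0.72), with *syt-11* at rank 7 and *ston-2* at rank 31. Of the 50 transcripts most like each gene, *ston-2* and *syt-11* shared 27, *ston-2* and *sec14-l2* 19, and *syt-11* and *sec14-l2* 22.

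Of the neuron markers, *chat* had the highest r with each member, by little for *sec14-l2*. Its r was 0.71 with *ston-2* (rank 15), 0.65 with *syt-11* (rank 15) and 0.49 with *sec14-l2* (rank 58). *pc2* followed at 0.66, 0.58 and 0.48, and *synapsin* at 0.50, 0.35 and 0.16. *piwi-1* was near the low end of the order for *ston-2*, at r = −0.49 and rank 11281. *alpha-tubulin* was near 0, at 0.01, −0.02 and 0.03. These values come from cells of 1 gate that share many zeros and differ in depth, and they are given as a description.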

How the data were processed

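Single-end reads of 50 bp were aligned by the authors to the SmedASXL transcriptome with Bowtie2 (version 2.2.4 in the labels, which also name bcl2fastq 1.8.3), trimming 15 bp from the 3′ end. The deposited count table holds raw counts per transcript for 168 single cells and 3 tubes. The row of unassigned reads (31.6% of a single cell's counts on average, 21.2% in X1 and 45.4% in X2 cells) was left out of library sizes. SmartSeq2 reads carry no molecular identifiers. The second deposited table holds a normalized signal, counts divided by size factors and Winsorized by the authors, sorted by variation. DESeq2 is named in the labels and DESeq in the paper. That signal was used here only for ranks and clusters. Size factors recomputed with the authors' rule gave the members' unclipped values with a largest relative difference of 6.77e-10.

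CPM, shares with exact 95% Clopper-Pearson intervals, Poisson intervals and log2 ratios of mean CPM (1 CPM added) were computed with Python 3.11.15, numpy 2.4.6, pandas 2.3.3 and scipy 1.17.1, drawn with matplotlib 3.10.9. R 4.3.3 rebuilt the clusters (Ward), and edgeR 4.0.16 gave TMM library sizes. Scripts were tested on simulated data. A floor of 3 counts stands for 0.

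Named were the 3 members, *piwi-1*, the listed genes beside a result, and the 3 transcripts most like each member. The lists were 8 other Group 3-enriched genes, 6 stem cell genes, neuron, protonephridial and epidermal markers, and *alpha-tubulin*. Members and lists were chosen with earlier results of these data known. Of the names, 13 were checked against the study's listed values over 49 cells, and all 13 matched their transcript (lowest r 0.998).

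Alternatives were the detection threshold, thinning to 100000 reads (seed 1), scaling, pseudocount, *piwi-1* split, filter, log2 clustering, and leaving out cells 1 to 24, the highest cells or a tube.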

Additional observations from a re-analysis of the deposited data

How the results depend on the processing

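No result from single cells changed direction under the alternatives run. Of the 61 alternative values of the main results, 45 stayed within the tolerance. The tolerance was the main interval for shares, 1.5-fold for counts and log2 ratios, and 0.1 for r. For the summed level of the X1 tubes it was 1 SD between them, 51.8 CPM. No paired analysis was possible because replicate numbers only name cells and no test was made. Counting any cell with 1 read or more, the share with a member was 34.4% of X1 cells and 23.6% of X2 cells, 17 X1 cells had at least 2 members, and the difference between *piwi-1*-low and high cells was 39.8 percentage points, against 36.4 at 5 CPM. Without X1 cells numbered 1 to 24, 5 X1 cells had at least 2 members. The median log2 ratio of the 3 genes for *piwi-1*-low over high cells was 4.52 and became 3.01 with 10 CPM added, 5.38 with DESeq size factors and 5.38 without the highest cell of each class. For X1 over X2 the median was 4.75. It became 7.62 with 0.1 CPM added, 1.99 with 10 CPM added, 6.77 with DESeq size factors, 3.83 with TMM, 3.95 on pooled CPM and 3.93 without the highest cells. It was 8.81 with the genes without an X2 read at their floor. The median of all transcripts for that comparison was 2.04 with DESeq size factors and 0.70 with TMM, against 0.55. The DESeq size factors rest on only 30 rows that had reads in every single cell, the row of unassigned reads among them. The summed CPM of the 3 genes in X1 tubes was 37.0 on average and 0.375 to 73.6 with 1 tube left out. With 2 tubes, leaving 1 out always stays within 1 SD, so these values count among the 45 but check nothing. Without X1 tube 1, the 0.375 CPM lay below the 16.3 CPM of the X2 tube, while the mean of both X1 tubes lay above it. The median r between the genes was 0.66 and 0.37 as Spearman's rho. Clustered on log2 values, the group nearest to Group 3 had 9 cells, 8 of them shared, and 100% had a member, against 70.6%. The cause of these shifts was not tested. With 1 sample per gate and 6 to 13 positive cells per gene, a share of up to 4.17% of X2 cells, by the limit of 3 counts, was not detectable for the genes without a read there.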
